A study of Bos taurus with 6 samples.

Results

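The miRNAs bta-miR-151 and bta-miR-423 were followed through both of their mature products, the 5p and the 3p arm, in extracellular vesicles (EVs) of cow milk. All rows of the deposited count table named bta-miR-151 or bta-miR-423 with an arm suffix were taken, which gave 4 rows, bta-miR-151-5p, bta-miR-151-3p, bta-miR-423-5p and bta-miR-423-3p, among 276 known and 503 predicted miRNAs. Small RNA of milk EVs was sequenced from 6 female Holstein cows in mid lactation, with 101 days in milk, 574 kg body weight and 32 kg of milk per day as given for the cows, all kept in chambers at 20°C and 40% humidity. The control diet, fed to 3 cows, was a total mixed ration (TMR). On the replacement diet, fed to the other 3, part of the alfalfa hay gave way to whole cotton seed and soybean hull. Every library was made from milk EVs isolated with a precipitation kit, so the cells that released the vesicles are not known from the samples.

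A miRNA gene is transcribed as a hairpin, and the enzymes Drosha and Dicer cut out of its stem a short duplex made of the 5p and the 3p arm. One strand is held by an Argonaute protein and guides it to messenger RNAs, mainly through the seed, the bases near its 5′ end, and the other strand is mostly degraded. The ratio of 5p to 3p counts therefore describes the balance of the strands counted in a sample. It needs no normalization to the library total, because both arms are counted in the same library. By RefSeq's annotation of ARS-UCD2.0, a cow assembly, the only gene of miR-151, MIR151, lies within the span of PTK2, which encodes focal adhesion kinase. The next protein-coding gene on 1 side of PTK2 there is AGO2, which encodes an Argonaute protein. The only gene of miR-423, MIR423, lies within the span of NSRP1, which encodes a nuclear speckle protein involved in splicing. Neither has another miRNA gene within 10 kb.

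The deposited sequences of the 4 arms are shown because their seeds set what each arm can pair with. They are written 5′ to 3′ with T for U as in the count table, and the capitals mark the seed, bases 2 to 8.
bta-miR-151-5p: tCGAGGAGctcacagtctagt
bta-miR-151-3p: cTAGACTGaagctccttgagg
bta-miR-423-5p: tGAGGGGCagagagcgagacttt
bta-miR-423-3p: aAGCTCGGtctgaggcccctcagt
No seed was shared between the arms. The miR-151 arms had 21 nt each with 52.4% G and C, while miR-423-5p had 23 nt with 56.5% and miR-423-3p had 24 nt with 62.5%. Both 5p arms began with T, as against C in miR-151-3p and A in miR-423-3p. Folded against each other with RNAduplex, the arms of either hairpin formed 18 base pairs, at a predicted energy of -28.6 kcal/mol for miR-151 and -29.0 kcal/mol for miR-423.

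Reads of close relatives could have been counted on these rows, so the table was searched for other sequences that share a seed or a run of at least 12 bases with an arm, on either strand. For the 3p arms there was none, and no known miRNA lay within 2 edits of any arm. The relatives of the 5p arms are printed with the shared run in capitals.
bta-miR-28: aAGGAGCTCACAGTCTAttgag
novel223_mature: CGAGGAGCTCACAGTCcagt
bta-miR-11971: TGAGGGGCAGAGAGtgagaa
Of these, bta-miR-28 shared 16 bases with miR-151-5p, at positions 4 to 19 of that arm counted from its 5′ end, so its seed was another one. The predicted sequence novel223_mature also shared 16 bases, started at base 2 of miR-151-5p and differed from it over the remaining overlap only by T18C. The known miRNA bta-miR-11971 shared the first 14 bases of miR-423-5p, its seed included, and differed from it further on by C15T and C20A. All 3 had few counts. Over the 6 cows bta-miR-28 had 17 counts, all in control cow 2, novel223_mature had 26 counts in 5 cows and bta-miR-11971 had 11 counts in 2 cows, against 36436 counts of miR-151-5p and 30061 of miR-423-5p. That is 0.467 and 0.714 counts per 1000 of miR-151-5p for bta-miR-28 and novel223_mature, and 0.366 per 1000 of miR-423-5p for bta-miR-11971. The seed of miR-423-5p was also found in the predicted novel130_mature and novel400_mature, with 43 and 9 counts in all. The miR-151-5p relative bta-miR-708, looked up by name, had 20 counts, all in replacement cow 1, and shared a run of 7 bases. How the authors assigned reads that match several miRNAs is not given in the sources used here. The counts of the relatives were made after that assignment, so they cannot show how many of their reads lie on the arm rows.

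The read totals behind the deposited scaled values were close, at 12130660 to 13369168 per cow, while the counts of known miRNAs differed more widely. Known miRNAs received 61156 to 176919 counts per cow, which were 15.8% to 42.0% of all miRNA counts, and the 4 arms received 5505 to 23772 of them. The share of an arm below is its percentage of what all known miRNAs of a cow received, with a 95% Wilson interval in the plots. Such intervals cover counting error only, since PCR copies are not separate molecules. No arm was undetected in any cow, and the lowest count was 80, of miR-151-3p in control cow 3. As in any bulk sample, fewer vesicles of a kind and less of a miRNA per vesicle cannot be told apart.

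The 5p arms were selected on their mean share in these libraries, being among the 5 most abundant known miRNAs, so their high levels are a description and were not tested. Together they made up 10.0% of known miRNA counts on average (SD 1.39 over 6 cows), from 8.16% in control cow 3 to 11.95% in replacement cow 1. The share of miR-151-5p was 5.35%, 6.36% and 3.59% in control cows 1 to 3, while replacement cows 1 to 3 had 6.33%, 5.79% and 4.94%. It ranked between 3 and 6 among the known miRNAs of each cow. Control cow 3 was the lowest and the other 5 cows lay between 4.94% and 6.36%. The share of miR-423-5p was 5.19%, 4.28% and 4.56% in the control cows, while the replacement cows had 5.62%, 4.31% and 3.77%. Its ranks ran from 4 to 6. Its highest and lowest cow were both on the replacement diet. In 5 of the 6 cows miR-151-5p exceeded miR-423-5p, by 1.03-fold to 1.48-fold, and in control cow 3 their ratio was 0.787. The mean share was 5.39% (SD 1.04) for miR-151-5p and 4.62% (SD 0.672) for miR-423-5p, so these neighbours in the order of all known miRNAs did not differ beyond their spread. Just above them stood bta-miR-486, abundant in red blood cells, with 6.83% (SD 2.77). Just below, and thus the first outside the 5 highest, stood bta-let-7f with 3.99% (SD 0.781). Neither gap exceeded the larger of the SDs, though neighbours in rank are close by their choice.

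The 3p arms were far rarer, and their order was the opposite. The share of miR-423-3p was 0.620%, 0.876% and 0.715% in control cows 1 to 3, while replacement cows 1 to 3 had 1.13%, 0.879% and 0.764%, and its mean of 0.831% (SD 0.178) held rank 22. The share of miR-151-3p was 0.251%, 0.336% and 0.131% in the control cows, while the replacement cows had 0.354%, 0.201% and 0.227%, and its mean of 0.250% (SD 0.0841) held rank 49. In every cow miR-423-3p was the higher of the 2, by 2.47-fold to 5.46-fold. Both 3p arms peaked in replacement cow 1, which had the most counts of known miRNAs. The ranks next to miR-423-3p were held by bta-miR-3600 with 0.841% and bta-miR-125b with 0.748%, and those next to miR-151-3p by bta-miR-24-3p with 0.277% and bta-miR-1468 with 0.232%. None of these gaps exceeded the larger of the SDs. Neighbours in rank are close by their choice, so this says little about their order. Different RNAs ligate to adapters with different efficiency, so an order between sequences is less certain than a comparison of 1 sequence between cows.

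**Figure D1:**
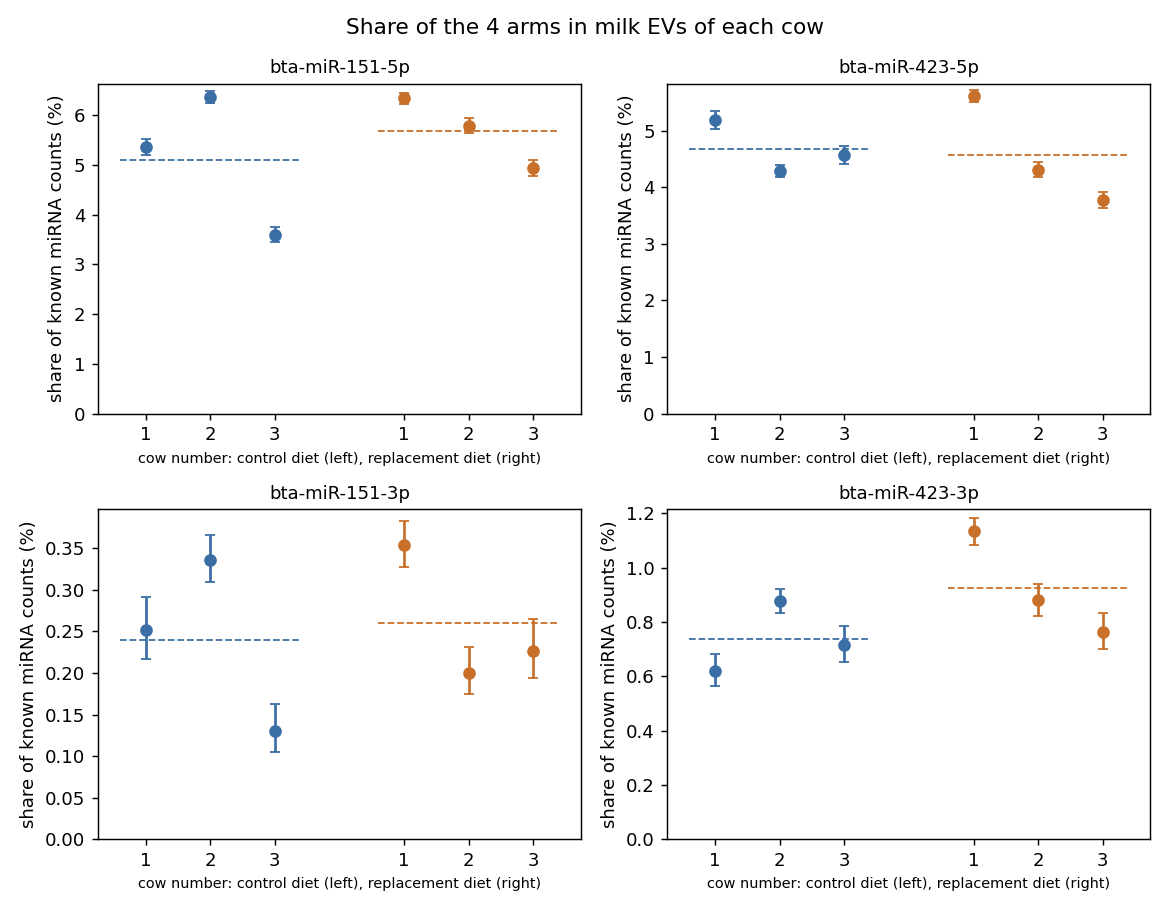
Share of each arm in the counts of known miRNAs (%, vertical axis from 0) for cows 1 to 3 of the control diet (blue) and of the replacement diet (orange). Bars are 95% Wilson intervals and dashed lines the means of the diets. The diets overlap in all 4 arms, and control cow 3 is the lowest for both miR-151 arms, at 3.59% and 0.131%.

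In control cow 3 the red blood cell miRNAs were also high. The list written for these cells has 8 miRNAs, of which 7 were found in the count table and 5 were detected in every cow, while miR-16a was at 0 in replacement cows 2 and 3 and miR-16b in replacement cow 3. Their summed share was 20.1% in control cow 3, against 7.21% and 10.9% in the other control cows and 6.52% to 10.9% in the replacement cows. With that list left out of the total, a choice made after seeing the data, miR-151-5p was lowest in control cow 3, at 4.50%, and its mean was 6.01% (SD 0.889). The means of the other arms became 0.277% for miR-151-3p, 5.19% for miR-423-5p and 0.929% for miR-423-3p. The marker lists of leukocytes (8 of 8 found, 7 in every cow) and of mammary epithelium (11 of 11 found, 4 in every cow) summed to 2.29% to 3.18% and 0.886% to 1.199% on the control diet, and to 2.00% to 3.15% and 0.463% to 0.876% on the replacement diet. The part of any of these lists in the levels of the arms was not tested.

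The balance of the strands was read from the arm ratio. The 5p arm dominated in all cows for both, which the selection of abundant 5p arms partly fixes. For miR-151 the ratio of 5p to 3p counts was 21.3, 18.9 and 27.5 in control cows 1 to 3, while replacement cows 1 to 3 had 17.9, 28.9 and 21.8. The highest cow exceeded the lowest by 1.61-fold, and both were on the replacement diet. The 5p arm held 95.7% of the counts of both arms on average (SD 0.782). For miR-423 the ratio was 8.37, 4.89 and 6.39 in the control cows, while the replacement cows had 4.96, 4.90 and 4.93. The observed ratios of the 3 replacement cows and control cow 2 were nearly equal, and control cows 1 and 3 stood above them. The 5p arm of miR-423 held 84.7% of the counts of both arms on average (SD 2.63). The arm ratio of miR-151 exceeded that of miR-423 in 6 of 6 cows, by a mean of 1.99 on the log2 scale (SD 0.397). The arms differ in sequence, so unequal ligation to adapters also enters each ratio. A ratio is therefore less certain in itself, or beside that of another hairpin, than in its comparison between cows.

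Counting error and the spread between cows were compared for each ratio. On the log2 scale the ratio of miR-151 averaged 4.48 in control cows (SD 0.275, n = 3) and 4.49 in replacement cows (SD 0.346, n = 3), while counting error alone gives a root mean square of 0.120 and 0.0974. The difference between diets was 0.0072 (two-sided exact permutation test, p = 1, adjusted p = 1 over 2 ratios). The log2 ratio of miR-423 averaged 2.68 in control cows (SD 0.387, n = 3) and 2.301 in replacement cows (SD 0.0084, n = 3), against counting errors of 0.0648 and 0.0545. The means differed by -0.38 on the log2 scale, replacement minus control, and the diets overlapped (two-sided exact permutation test, p = 0.4, adjusted p = 0.8 over 2 ratios, with 0.1 as the smallest p possible for 3 cows against 3). Without control cow 1 the difference was -0.18, and without control cow 2 it was -0.57. The SD of the replacement cows lay below their counting error, so it cannot show how alike these cows are. The difference in spread between the diets was noticed in the data and was not tested.

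The high ratio of miR-423 in control cow 1 came with the lowest share of its 3p arm, 0.620%, and the second highest of its 5p arm, 5.19%. In control cow 3 the 3p arm was the second lowest. Known miRNAs made up 21.5% and 15.8% of all miRNA counts in control cows 1 and 3, the lowest values of the series, against 25.7% to 42.0% in the other cows. The counts of the predicted novel130_mature, which has the seed of miR-423-5p, were 12 and 18 in these cows, 13 in replacement cow 2 and 0 elsewhere. Whether either has a part in the arm ratio was not tested.

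**Figure D2:**
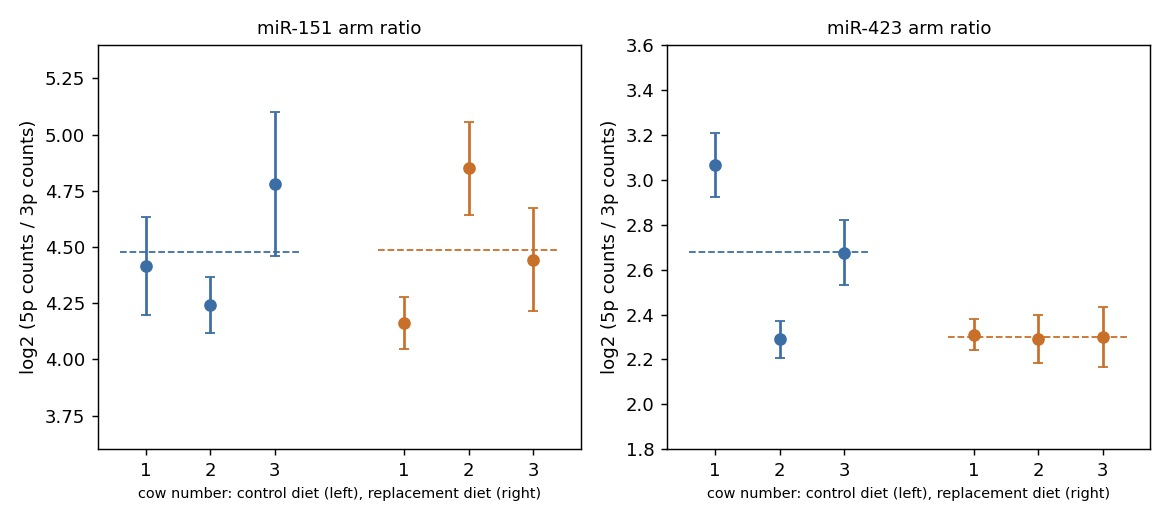
Arm ratio of miR-151 (left) and miR-423 (right), as log2 of 5p over 3p counts, for each cow of the control diet (blue) and the replacement diet (orange). Bars are 95% Wilson intervals of the counts and dashed lines the means of the diets. The vertical axes do not start at 0 but span the same range of 1.8. For miR-423 the replacement cows lie within 0.02 of each other, closer than their counting error, and the control cows between 2.29 and 3.06.

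The arms of 1 hairpin are made from the same precursor, so their levels were compared across cows on the log2 scale of the share. For miR-151 the cows low in one arm tended to be low in the other, with Pearson's r = 0.91 over 6 cows (exact permutation p = 0.0167, adjusted p = 0.0667 over 4 relations) and Spearman's rho = 0.77 (exact permutation p = 0.103, adjusted p = 0.411). Without control cows 3 and 2, the farthest from the median, r was 0.61 over 4 cows. For miR-423 the arms gave r = 0.25 (exact permutation p = 0.637, adjusted p = 0.894) and rho = 0.09 (exact permutation p = 0.919, adjusted p = 1). Without replacement cows 1 and 3, r turned to -0.96 over 4 cows. The shares of miR-151-5p and miR-423-5p gave r = 0.23 (exact permutation p = 0.671, adjusted p = 0.894) and rho = 0.09 (exact permutation p = 0.919, adjusted p = 1), with r = 0.73 over 4 cows without control cows 3 and 2. For the arm ratios of both hairpins r was 0.13 (exact permutation p = 0.94, adjusted p = 0.94) and rho was -0.03 (exact permutation p = 1, adjusted p = 1), with r = 0.48 over 4 cows without replacement cow 2 and control cow 3. Each diet holds only 3 cows, too few for a value within diets. Shares of 1 total are not free of each other.

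**Figure D3:**
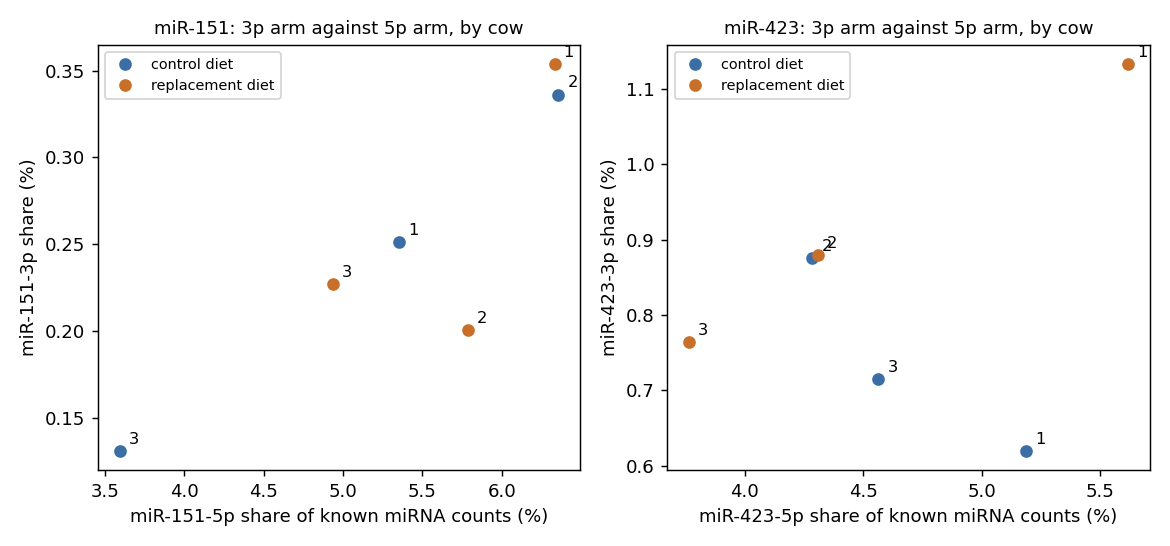
Share of the 3p arm (vertical axis, %) against that of the 5p arm (horizontal axis, %) for miR-151 (left) and miR-423 (right), 1 point per cow with its number, blue for the control and orange for the replacement diet. The axes do not start at 0. The miR-151 points run from control cow 3, lowest in both arms, up to control cow 2 and replacement cow 1, while control cow 1 has the lowest 3p and the second highest 5p share of miR-423.

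Among 46 other known miRNAs with at least 100 counts in every cow, those whose log2 share was most like that of an arm over the 6 cows differed from arm to arm. They were bta-miR-191 (r = 0.90) and bta-miR-3600 (r = 0.86) for miR-151-5p, and bta-miR-30b-5p (r = 0.89) and bta-miR-26a (r = 0.88) for miR-151-3p. The share of bta-miR-191 was 8.78% in control cow 3, where both miR-151 arms were lowest too, and 20.9% in replacement cow 1. For miR-423-3p they were bta-miR-30d (r = 0.91) and bta-miR-361 (r = 0.87), both highest in replacement cow 1 as that arm was. For miR-423-5p the highest values were lower, 0.63 for bta-miR-148a and 0.52 for bta-let-7d. The median r over the 46 miRNAs was -0.50, -0.52, -0.47 and -0.19 for miR-151-5p, miR-151-3p, miR-423-3p and miR-423-5p. These are descriptions over 6 libraries that share 1 total each.

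Diet was tested for every miRNA with edgeR's quasi-likelihood test on 227 known and predicted miRNAs that passed the default filter on low counts, all 4 arms included. No miRNA of the table passed an adjusted p of 0.05 (0 of 227, 0%), and 8 (3.52%) had an unadjusted p under 0.05, none of them an arm. The log2 fold change, replacement over control, was 0.19 (standard error 0.45) for miR-151-5p, 0.17 (standard error 0.64) for miR-151-3p, 0.08 (standard error 0.41) for miR-423-5p and 0.40 (standard error 0.48) for miR-423-3p. Each had an adjusted p of 0.986 by edgeR with Benjamini-Hochberg adjustment. Their median was 0.18, beside 0.03 over the 227 miRNAs, whose quartiles were -0.58 and 0.54. None of the arms was without overlap between diets in normalized counts, as were 29 of the 227 (12.8%), 10 of them higher (4.41%) and 19 lower (8.37%) on the replacement diet. DESeq2 called 3 of 767 miRNAs (0.391%) and limma-voom 0 of 227, again without an arm. The sign of these small differences rested on single cows. Without control cow 3 the log2 fold change was -0.14 for miR-151-5p, -0.25 for miR-151-3p and -0.08 for miR-423-5p. Without replacement cow 1 it was -0.16, -0.44 and -0.40 for the same arms and -0.07 for miR-423-3p.

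**Figure D4:**
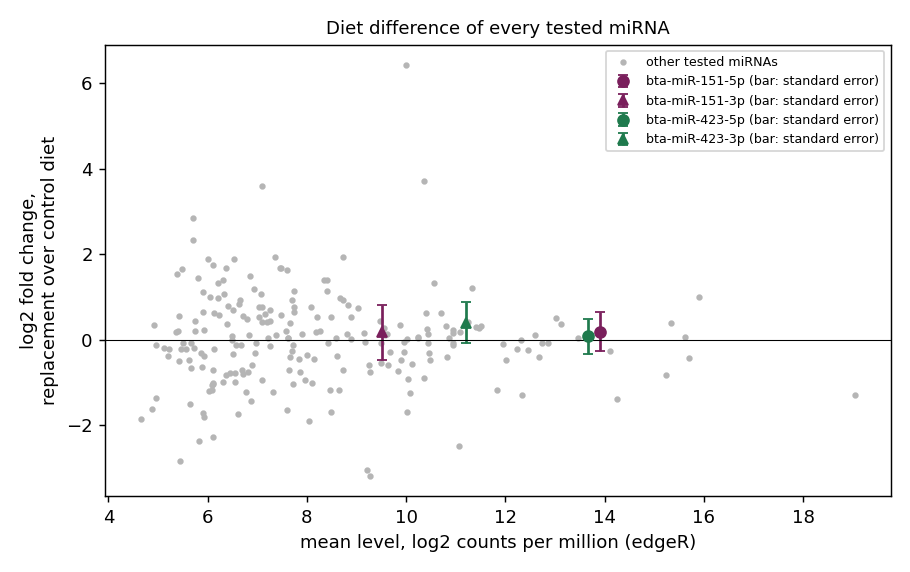
Log2 fold change, replacement over control diet (vertical axis), against mean level in log2 CPM (horizontal axis) for the 227 tested miRNAs, grey, with the 4 arms in colour and their standard errors as bars. The 4 arms lie between 0.08 and 0.40, and each bar but that of miR-423-3p extends below -0.25.

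The shares gave the same picture of overlap. Between diets the mean share of miR-151-5p was 5.10% in control cows (SD 1.40, n = 3) and 5.69% in replacement cows (SD 0.703, n = 3; two-sided exact permutation test, p = 0.7). For miR-423-5p the means were 4.68% (SD 0.462, n = 3) and 4.56% (SD 0.951, n = 3), with an exact permutation p of 0.9. For miR-151-3p they were 0.239% and 0.260% (exact permutation p = 0.9). The largest relative difference was that of miR-423-3p, with 0.737% (SD 0.129, n = 3) and 0.925% (SD 0.189, n = 3), and the diets overlapped (exact permutation p = 0.2). That difference was 0.189 percentage points, and 0.0848 without replacement cow 1. Adjusted over the 4 arms, the p was 0.8 for miR-423-3p and 0.9 for the others. As RPM, which scales counts to the read total of the library, the values ran from 177 to 838 RPM for miR-151-5p, from 208 to 743 RPM for miR-423-5p, from 33.4 to 150 RPM for miR-423-3p and from 6.44 to 46.8 RPM for miR-151-3p. All 4 were highest in replacement cow 1 on this scale.

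The ratios were finally set beside those of the other known miRNAs. Of 13 hairpins with a 5p and a 3p row in the table, 3 had at least 10 counts of each arm in every cow, namely miR-151, miR-423 and miR-126, a miRNA of endothelial cells. The log2 ratio of miR-126 was -0.22 (SD 0.262 over 6 cows), so its arms were nearly even, and its spread between cows was close to the 0.280 of miR-151 and the 0.320 of miR-423. With counts summed over cows, the 5p arm was the higher in 7 of the 13 pairs and the 3p arm in 6. The log2 ratio of these sums was 4.36 for miR-151, at rank 2, between 9.38 for miR-142 and 3.93 for miR-10175. It was 2.41 for miR-423, at rank 5, between 3.08 for miR-425 and 2.2996 for miR-193a. The selection of abundant 5p arms partly fixes both ranks. At the other end, miR-22 reached -7.83. The ratios of miR-142, miR-10175 and miR-193a rest on 1, 5 and 13 counts of the 3p arm. Known miRNAs named without an arm suffix have no partner in this comparison.

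**Figure D5:**
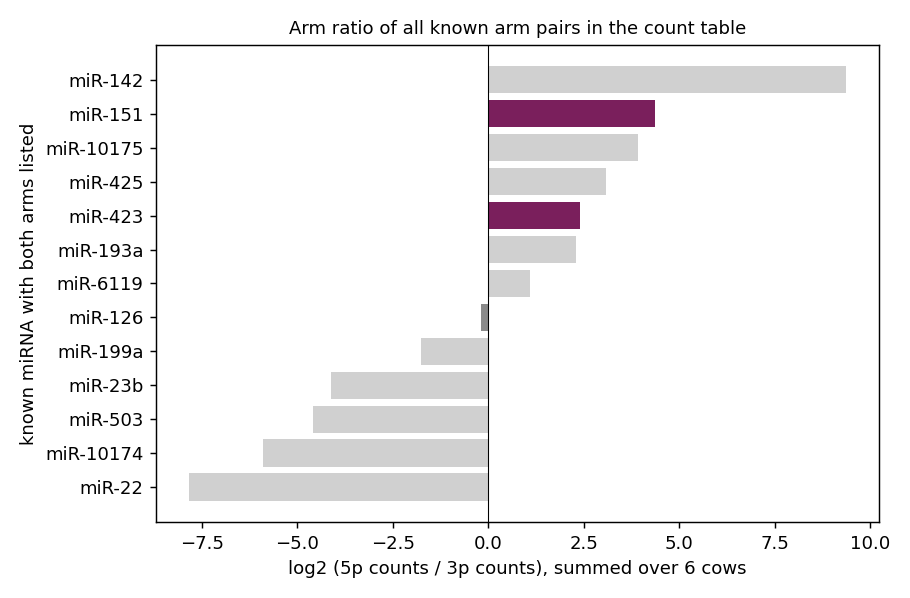
Log2 of 5p over 3p counts summed over the 6 cows (horizontal axis) for the 13 known miRNAs with both arms in the count table. Purple bars are miR-151 and miR-423, the dark grey bar is miR-126, the other pair with both arms in every cow, and light grey bars are pairs with an arm at 0 in at least 1 cow. Bars right of 0 have more 5p counts: miR-151 reaches 4.36 and miR-423 reaches 2.41.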

How the data were processed

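The authors trimmed reads with Cutadapt 1.14, aligned them to the cow genome (ARS-UCD1.2, with Bowtie named in the submitters' processing notes), filtered other RNA by Rfam, named known miRNAs from miRBase and predicted others with miRDeep2. The authors deposited unnormalized counts per mature miRNA. The authors also deposited these as RPM under the name TPM. Each RPM value is the count scaled by 1 total per cow, 12130660 to 13369168 reads, with no length term. A table of the authors' fold changes and p-values between diets was not used.

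Diet and cow number came from the labels. The 4 arms, marker lists and tests were chosen with earlier results of these data known. Diets were compared with edgeR 4.0.16 (TMM, default filter, quasi-likelihood test, Benjamini-Hochberg) on the whole table, and alternatively with DESeq2 1.42.0 and limma 3.58.1, in R 4.3.3, checked on simulated counts. Shares, arm ratios and relations were tested by exact permutation with Python 3.11.15 and scipy 1.17.1. Duplexes came from RNAduplex 2.7.2. Named besides the arms are their sequence relatives, neighbours in mean share or arm ratio and the 2 likest miRNAs per arm. The arm pairs miR-22 and miR-126, the markers miR-16a and miR-16b and some relatives were named after their values were seen. The labels do not state that cow numbers pair the cows, so numbers were not taken as pairs. Cows of the same number deviated from their diet means with r = -0.16, 0.03 and 0.28, and cows of different numbers with r from -0.32 to 0.30. With 3 cows per diet these values cannot decide on a pairing. Same-diet cows differed beyond sampling noise (chi-square of at least 28.6 per degree of freedom). No hairpin sequence was used here.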

Additional observations from a re-analysis of the deposited data

How the results depend on the processing

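The arms stayed above an adjusted p of 0.05 in all 56 alternative fits of their diet differences, 47 of which kept the sign. The number of miRNAs called between diets was 15 without a filter on low counts, 3 by DESeq2, 0 to 1 with a cow left out (1 without control cow 2 and 1 without control cow 3) and 0 in the other fits. Over the miRNAs that passed the filter, the median log2 fold change moved from 0.03 to 0.17 with RLE size factors and 0.63 with library size alone. It was 0.23 with the deposited read totals. DESeq2 was run without that filter and gave a median of -0.24, beside -0.26 for edgeR without the filter. The log2 fold change of miR-151-5p moved from 0.19 to 0.33 with RLE size factors, 0.76 with library size alone, 0.30 with the deposited read totals and 0.30 with DESeq2. For miR-423-5p it was -0.0228 with limma-voom. With the cow number as a replicate block, whose pairing the labels do not state, it was -0.0297 for miR-423-5p, and no call changed. Leaving out a cow gave log2 fold changes of -0.16 to 0.65 for miR-151-5p, -0.44 to 0.78 for miR-151-3p, -0.40 to 0.32 for miR-423-5p and -0.0661 to 0.82 for miR-423-3p.

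The diet difference in the log2 arm ratio of miR-151 ran from -0.18 to 0.17 with a cow left out and was -0.0061 percentage points as the 5p share. That of miR-423 ran from -0.57 to -0.18. Differences in share ran from -0.170 to 1.21 percentage points for miR-151-5p, -0.0332 to 0.0695 for miR-151-3p, -0.642 to 0.283 for miR-423-5p and 0.0848 to 0.269 for miR-423-3p, lowest without replacement cow 1. For miR-423-5p the difference was 0.589 percentage points of all miRNA counts and 80.0 RPM. With the red blood cell list left out of the known total it was -0.387 percentage points, against -0.116 with the list. For miR-423-3p it was 0.169 without the list and 0.189 with it. With known and predicted miRNAs as the total, mean shares were 1.59%, 0.0749%, 1.32% and 0.247% for miR-151-5p, miR-151-3p, miR-423-5p and miR-423-3p, and the deposited TPM gave 475, 23.0, 391 and 73.8 RPM, each on its own scale. Without the 2 cows farthest on the axis, the relation of the miR-423 arms turned to r = -0.96, which rests on 4 cows only. With counts summed over cows, 13 arm pairs instead of 3 were compared and the ranks of the miR-151 and miR-423 ratios were 2 and 5. The cause of these changes was not tested. With 80 to 626 counts per cow, counting error limits miR-151-3p most.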

Other observations

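Of 10 quantities checked for a cow that stands apart from the other 5 (share and RPM of each arm and both log2 arm ratios), none passed Dixon's 95% limit for 6 samples. The nearest was the log2 arm ratio of miR-423, where control cow 1 was separated from the next cow by 0.504 of the whole range.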
